A study of Mus musculus with 12 samples.

Results

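MLL4 Cut & Run peaks were compared between Fbxw7 knockout (KO) and wild-type (WT) mouse embryonic fibroblasts, with 2 libraries per genotype. Every peak that the authors called on chromosomes 1 to 19 and X in these 4 libraries was taken. This gave 218 peaks of the 287143 in all 12 libraries of the series, the other 8 being H3K4me1 and H3K4me3 libraries of the same genotypes. Peaks that shared at least 1 bp were merged, which left 93 regions. The KO cells carry the genotype label fbxw7 KO and the WT cells the label WT; all were grown in DMEM with serum, and an MLL4 antibody was used on pooled cells, so that fewer cells with a bound site and less signal per cell cannot be told apart. Which part of Fbxw7 was removed is not stated, nor how the cells were derived, nor whether the 2 libraries of a genotype came from separate cultures. The spread between libraries of a genotype may therefore be technical only, and the p-values cannot be read beyond these 4 libraries. No MLL4 peak lay at an end of Fbxw7, so the lists do not check the genotype labels.

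Cut & Run cuts chromatin where an antibody is bound, by tethering a nuclease to it, and sequences the fragments set free. MLL4 is the product of Kmt2d and places monomethylation on lysine 4 of histone H3 (H3K4me1), mostly at enhancers, and works in a complex with UTX (Kdm6a), PTIP and the WDR5, RBBP5, ASH2L and DPY30 core. Trimethylation of the same residue (H3K4me3) marks active promoters and is placed chiefly by the SET1 and MLL1/MLL2 enzymes. FBXW7 is the subunit of an SCF ubiquitin ligase that recognises phosphorylated substrates such as cyclin E, c-MYC, c-JUN and Notch and sends them for degradation.

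The sequences of 3 promoters are shown because at least 50 of their 250 bases upstream of the transcription start lay under an MLL4 region, a printing limit that was set after the overlaps were seen. The sequences are from RefSeq (GRCm38.p6, the coordinates of mm10) and run 5′ to 3′ along the gene's strand, ending at the base before the transcription start. Capitals mark the bases inside the MLL4 region. Fkbp2 encodes a peptidyl-prolyl isomerase of the endoplasmic reticulum (minus strand, chr19:6980087-6980336, 130 bases under the peaks of both WT libraries). Its printed bases lie inside the annotated gene (chr19:6977737-6980464), upstream of an internal start. Cic encodes Capicua, a transcriptional repressor downstream of receptor tyrosine kinases (plus strand, chr7:25267449-25267698, 92 bases under the peak of WT replicate 2). Gamt encodes guanidinoacetate methyltransferase, which makes creatine (minus strand, chr10:80261013-80261262, 132 bases under the peak of WT replicate 1).
Fkbp2: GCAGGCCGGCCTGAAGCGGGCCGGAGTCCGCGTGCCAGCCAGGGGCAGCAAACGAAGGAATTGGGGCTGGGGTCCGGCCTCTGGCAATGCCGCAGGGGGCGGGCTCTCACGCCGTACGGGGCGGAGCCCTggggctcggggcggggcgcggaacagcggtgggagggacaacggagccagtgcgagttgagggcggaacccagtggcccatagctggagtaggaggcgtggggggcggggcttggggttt
Cic: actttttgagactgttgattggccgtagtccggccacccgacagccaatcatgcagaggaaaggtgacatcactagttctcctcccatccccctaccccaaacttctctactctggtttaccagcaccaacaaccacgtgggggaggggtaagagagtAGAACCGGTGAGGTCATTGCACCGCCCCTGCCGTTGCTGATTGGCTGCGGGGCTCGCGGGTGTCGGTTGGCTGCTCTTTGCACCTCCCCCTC
Gamt: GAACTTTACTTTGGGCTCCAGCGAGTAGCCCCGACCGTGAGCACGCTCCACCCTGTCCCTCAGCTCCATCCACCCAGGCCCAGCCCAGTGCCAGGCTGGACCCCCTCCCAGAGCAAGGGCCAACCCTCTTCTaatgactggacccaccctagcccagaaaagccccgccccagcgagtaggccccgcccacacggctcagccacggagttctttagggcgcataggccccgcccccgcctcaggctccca

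In all, the 250 bases upstream of the start of 9 genes met an MLL4 region by at least 1 base. Where a gene had more than 1 listed start, the one with the largest overlap was used, a choice not made for the promoters compared. They were rich in G and C, with a median GC content of 66.8% and a median of 18 CpG dinucleotides, against 52.4% and 6 over the 32619 promoters of the table. The GC box GGGCGG stood on either strand in 7 of the 9 (77.8%), against 33.0% of all promoters. CCAAT, the core bound by NFY, was in 6 (66.7%) against 34.0%. The AP-1 site TGANTCA was in 0 of the 9 against 6.78%, the E-box CACGTG in 1 against 6.06%, the ETS core GGAAG in 4 against 64.0%, and TATAAA in 1 against 12.4%. Both strands were searched and none of the 6 strings contains another. In the 3 promoters shown above, the GC box occurs 5 times in Fkbp2, 1 time in Cic and 3 times in Gamt. These matches describe the letters of the promoters, not bound sites.

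Few MLL4 peaks were called, and the KO lists were the shorter ones. The lists held 49 and 40 peaks in the KO libraries, against 60 and 69 in the WT libraries, at 5743404 and 4435103 filtered fragments in KO and 5629819 and 5838305 in WT. KO replicate 1 thus had fewer peaks than WT replicate 1 with slightly more fragments, while KO replicate 2 was the shallowest library. The means were 44.5 ± 6.36 peaks in KO and 64.5 ± 6.36 in WT (SD, n = 2 each; log2 KO/WT −0.54, exact two-sided permutation p = 0.333). With 2 libraries against 2, no exact permutation p can be below 0.333, so no difference between these genotypes can pass 0.05. Histone lists from the same cells were far longer, from 10397 to 62065 peaks.

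The genotypes lay close together in the height and width of a typical MLL4 peak. The median peak length was 359 and 353 bp in KO, against 349 and 320 bp in WT (log2 KO/WT 0.09, exact permutation p = 0.333). The summit pileup is the number of fragments stacked over a peak's highest point, and its median was 15 and 15 in KO and 15 and 16 in WT. Scaled to 1000000 filtered fragments (FPM), the median was 2.61 and 3.38 FPM in KO, against 2.66 and 2.74 in WT (log2 KO/WT 0.14, exact permutation p = 1). The fold enrichment over local background, the peak caller's own ratio, had a median of 7.67 and 9.02 in KO, against 7.70 and 8.23 in WT (log2 KO/WT 0.06, exact permutation p = 1). For these last 2 measures the KO libraries lay on both sides of the WT libraries, and the direction turned under several alternatives: with lists cut to equal length the log2 differences were −0.34 for pileup in FPM and −0.18 for fold enrichment, and without KO replicate 2 they were −0.05 and −0.05. For length the difference was −0.10 with lists of equal length.

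Over the 93 regions, 23 had a peak in all 4 libraries, 18 in 3, 18 in 2 and 34 in 1. Both KO libraries and no WT library held 2 regions (2.15%), whereas both WT libraries and no KO library held 11 (11.8%). Of the 18 regions in 3 libraries, 5 lacked only KO replicate 1, 8 only KO replicate 2, 5 only WT replicate 1 and 0 only WT replicate 2. A region in 1 library came from KO replicate 1 at 8 sites, from KO replicate 2 at 1, from WT replicate 1 at 10 and from WT replicate 2 at 15. The base-pair overlap of 2 lists as a share of all bases covered by either (Jaccard index) was 0.527 between the KO libraries, 0.593 between the WT libraries and 0.444 to 0.480 across genotypes. Regions common to all 4 libraries made up 49.0% and 60% of the KO peaks, against 38.3% and 33.3% of the WT peaks. Missing peaks mean only that a site did not pass the caller's threshold. With 1 library left out the rule asks about fewer libraries, so these counts can only stay or rise. KO-only regions then numbered 2 to 10 and WT-only regions 16 to 26. They were highest without KO replicate 2 for the first and without WT replicate 1 for the second. With lists of equal length there were 7 of each.

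**Figure D1:**
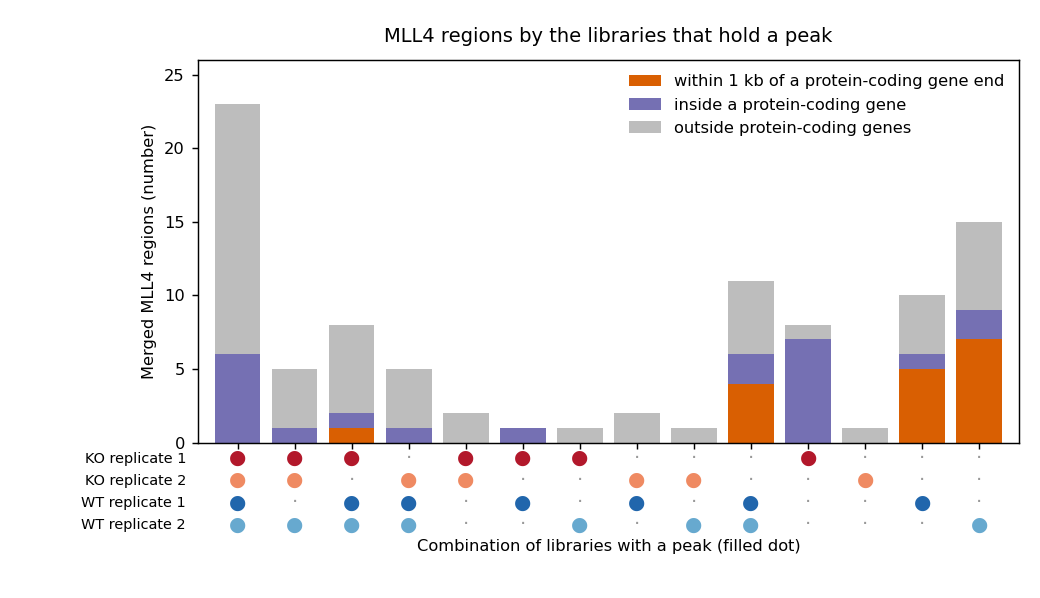
Number of merged MLL4 regions (vertical axis) for each combination of libraries with a peak (filled dots below the axis), coloured by gene context. The 23 regions held by all 4 libraries include none at a gene end; 16 of the 17 gene-end regions fall in columns without a KO library.

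Sites at gene ends were nearly all from WT libraries. Gene ends were taken as windows of 1 kb either side of both ends of a protein-coding gene. These windows cover 4.19% of the bases of the effective genome, whereas a peak was counted on an overlap of at least 1 bp. They held 1 of 49 peaks in KO replicate 1 (2.04%, exact 95% interval 0.0517 to 10.9) and 0 of 40 in KO replicate 2 (interval up to 8.81%). The WT libraries had 10 of 60 (16.7%, 8.29 to 28.5) and 12 of 69 (17.4%, 9.32 to 28.4). The interval of KO replicate 1 overlapped both WT intervals, and that of KO replicate 2 overlapped that of WT replicate 1 but not that of WT replicate 2. The means were 1.02 ± 1.44% in KO and 17.0 ± 0.512% in WT (SD, n = 2 each), a difference of −16.0 percentage points (exact permutation p = 0.333). In lists of equal length the difference was −16.3 points. Genes with such a peak numbered 20 of 21627 over all libraries (0.0925%), 1 in KO (0.00462%) and 20 in WT (0.0925%). The intervals cover counting error only.

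The 20 genes share 17 regions. Summits lay 110 to 685 bp from the nearest gene end, with a median of 221 bp, and 13 of the 20 were under 300 bp. For the 17 genes whose strand the promoter table gives, 16 had the peak at the 5′ end and 1, Lars2, at the 3′ end; for Egr1, Sfi1 and Usp5 no strand was at hand. Regions at gene ends were short, with a median of 269 bp against 371 bp for the 76 others. None of the 17 was held by all 4 libraries, 4 were held by both WT libraries alone, 5 by WT replicate 1 alone, 7 by WT replicate 2 alone and 1 by 3 libraries. At the 5 gene-end regions shared by 2 or more libraries, the range of the summits had a median of 6 bp. It was 79 bp at the 54 such regions away from gene ends. The 2 sets are not alike, as a range can grow with the number of libraries. Of the 5, 4 were held by 2 libraries, whereas 23 of the 54 were held by all 4.

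The 4 gene-end regions found in both WT libraries and neither KO library lay at 6 genes. A region at Cdca3 and Usp5 (chr6:124829173-124829441) had a pileup of 28 and 16 in the WT libraries and no peak in either KO library. Cdca3 encodes a regulator of mitotic entry and Usp5 a deubiquitinase that takes apart free ubiquitin chains. Upstream of Ell, which encodes an elongation factor of RNA polymerase II, chr8:70539014-70539262 had 14 and 20 in WT and no KO peak. At Zfpm1, the gene of the GATA cofactor FOG1, chr8:122281564-122281891 had 17 and 15 in WT and no KO peak. The region shared by Fkbp2, shown above, and LOC114841036 (chr19:6980207-6980465) had 14 and 14 in WT and no KO peak. Their summits stood at 161 bp (Cdca3), 115 bp (Usp5), 589 bp (Ell), 197 bp (Zfpm1), 198 bp (Fkbp2) and 174 bp (LOC114841036) from the nearest end. WT-only genes numbered 3 with lists of equal length and 12 with a window of 5 kb. They numbered 6 to 13 when 1 library was left out, 13 of them without WT replicate 1. This last count can only stay or rise, as the rule then asks about fewer libraries.

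Lars2, which encodes the mitochondrial leucyl-tRNA synthetase, had the single gene-end region with a KO peak. Its 3′ region at chr9:123461832-123462158 had a pileup of 17 in KO replicate 1, no peak in KO replicate 2, and 27 and 24 in the WT libraries. This was 2.96 FPM in KO replicate 1 against 4.80 and 4.11 in WT. With the Lars2 region left out, the difference in the share at gene ends was −15.7 points.

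WT replicate 1 alone held 5 gene-end regions with pileups of 11 to 18. They lay at Dazap1 and Gamt (chr10:80261131-80261695, 18), at Rras (chr7:45017462-45017700, 14), at Gsk3b (chr16:38088986-38089259, 12), at Fbxo5 (chr10:5805694-5805942, 11) and at Sp4 (chr12:118301642-118301950, 11). Dazap1 encodes an RNA-binding splicing regulator, Rras a small GTPase, Fbxo5 the anaphase-promoting complex inhibitor EMI1 and Sp4 a zinc-finger factor that binds GC boxes. Gsk3b encodes the kinase that phosphorylates several FBXW7 substrates. Besides Gamt, the 250 upstream bases of 4 of these genes met the region: 9 bases at Rras, 15 at Gsk3b, 22 at Fbxo5 and 49 at Sp4.

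A further 7 gene-end regions were in WT replicate 2 alone, with pileups of 10 to 37. The highest was at Sfi1, the gene of a centrin-binding centrosome protein (chr11:3131958-3132216, 37), followed by Cic (chr7:25267607-25267893, 22) and the beta-tubulin gene Tubb4b (chr2:25224987-25225260, 16). Sec16a, the scaffold of endoplasmic reticulum exit sites, had 15 (chr2:26445614-26445845) and Mbd3, a subunit of the NuRD complex, had 13 (chr10:80399232-80399517). Ensa, which encodes an inhibitor of the phosphatase PP2A, had 12 (chr3:95625017-95625253). The immediate early transcription factor gene Egr1 had 10 (chr18:34860875-34861104). As each of these 12 regions rests on 1 WT library, the second WT library had no call where the first had one.

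H3K4me3 was common at these genes and lower in the KO libraries, as it was over all genes. In the KO libraries 17 and 19 of the 20 genes had an H3K4me3 peak within 1 kb of an end, against 20 and 20 in the WT libraries; over all genes the shares were 38.3% and 40.9% in KO and 55.2% and 52.7% in WT. H3K4me3 was present in all 4 libraries at 17 of the 20, against 63.1% of the genes that had a peak in any library. Gsk3b alone was WT-only for H3K4me3 (15.3% of genes with a peak were), and Sp4 and Zfpm1 lacked the peak in KO replicate 1. At the 17 genes the H3K4me3 pileup in FPM had a median log2 KO/WT of −1.46, and at all 7564 genes with H3K4me3 in all 4 libraries it was −1.47. The H3K4me3 libraries had 5519477 and 5938102 filtered fragments in KO, against 11319701 and 6185767 in WT, so WT replicate 1 was the deepest. Not all 17 are separate: Dazap1 and Gamt have the same H3K4me3 values, as do Cdca3 and Usp5. Ell had 3.62 and 3.37 FPM in KO, against 14.2 and 12.4 in WT. Cdca3 had 3.80 and 4.55 in KO and 12.7 and 12.3 in WT, and Egr1 had 1.81 and 2.02 in KO and 11.4 and 7.76 in WT. Among the 17 genes the KO and WT libraries overlapped at Sfi1 alone, so these 3 genes do not stand out. The share of all genes without overlap was not counted. At those of the 20 genes with an H3K4me3 peak, its level stood at a median percentile of 66.6 and 75.4 among peaks of its KO library. In WT it was 86.2 and 72.3. At the 17 genes with the peak in all 4 libraries, the median percentiles were 66.6 and 83.8 in KO and 91.9 and 80.7 in WT. Over the 7564 genes they were 59.3 and 57.4 in KO and 76.1 and 72.3 in WT.

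MLL4 and H3K4me3 peaks overlapped at most of these ends. A KO H3K4me3 peak overlapped the MLL4 region at 7 of the 17 gene-end regions and a WT one at 13. The KO H3K4me3 peaks were also shorter. At the 17 genes with H3K4me3 in all 4 libraries their median length was 430 and 488 bp, against 1558 and 1374 bp in WT. Over all 7564 such genes it was 617 and 693 bp in KO and 1618 and 1383 bp in WT. The part of length in the overlap counts was not tested. At Gsk3b, Rras and Zfpm1 no H3K4me3 library had a peak over the MLL4 region. The nearest WT H3K4me3 peaks lay at 532 and 647 bp (Gsk3b), 232 and 250 bp (Rras) and 635 and 633 bp (Zfpm1). Within WT, H3K4me3 exceeded MLL4 in FPM at 6 of 7 gene-end regions that had both peaks in replicate 1 and at 8 of 9 in replicate 2, with median ratios of 3.53 and 3.63. H3K4me1, the mark MLL4 places, overlapped 3 of the 17 regions in any library. Its peaks of all 4 libraries together cover 3.9% of the effective genome, which is a share of bases and not of regions overlapped. At gene ends of the 20 genes it was present in all 4 libraries for Dazap1 and Gamt, which share a region, KO-only for 0, WT-only for Ensa and Tubb4b, and absent for 9. Over all genes with H3K4me1 in any library, 5.19% were KO-only and 6.31% WT-only.

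Genes of the pathways around MLL4 and FBXW7 were looked up in the lists as well. Over all genes 0.0925% had an MLL4 peak at an end, so lists of 16 to 101 genes would hold about none at that share, and their counts say nothing particular about them. Of 21 genes of the H3K4 methylation machinery, Kmt2d among them, 0 had an MLL4 peak at an end, as did 0 of 20 Fbxw7 substrate genes, 0 of 101 ribosomal protein genes and 0 of 67 histone genes. Of 16 AP-1 and immediate early genes 1 did, Egr1, in WT replicate 2 only. H3K4me3 was called at an end in all 4 libraries at 35% of all genes. The share was 61.9% of the methylation machinery (13 of 21), 45% of the substrates (9 of 20), 65.3% of the ribosomal protein genes (66 of 101), 22.4% of the histone genes (15 of 67) and 18.8% of the AP-1 and immediate early genes (3 of 16). The fibroblast label was compared with H3K4me3 at marker genes. All 4 libraries had it at 10 of 27 fibroblast markers (37.0%), close to the share of all genes, so this count does not check the label. At least 1 library had it at 22 of the 27 (81.5%), against 55.5% of all genes, 1 of 7 pluripotency, 1 of 7 haematopoietic, 2 of 6 endothelial, 1 of 6 epithelial and 3 of 7 neural markers. In all 4 libraries it was called at 1 of the 6 endothelial markers and at 0 of the others outside the fibroblast list.

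Most MLL4 regions lay away from gene ends: 22 inside protein-coding genes and 54 outside them. Some of them were called with every antibody or had a very high pileup. A region was termed a high-signal site if all 12 libraries of the series had a peak there or if its summit pileup was at least 5 times its list's median in at least 1 MLL4 library. This held for 15 regions, 12 of them through a peak in all 12 libraries, and 13 of the 15 were in all 4 MLL4 lists. The term thus covers sites called with every antibody as well as sites of high pileup: 7 of the 12 stayed under 5 times the median in every MLL4 library, the lowest at 1.69 times (in Frem3). The other 3 qualified by pileup alone. By each site's highest ratio, the lowest among them was 6.93 times the median (chr17:39848267-39848678, WT replicate 1). That site had 5.81 times in WT replicate 2. The highest ratio among regions that were not high-signal was 3.19 times (in Aida, WT replicate 2). High-signal sites made up 28.6% and 35% of the KO peaks against 25% and 21.7% of the WT peaks. No repeat annotation was used here.

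The strongest MLL4 site of both WT libraries lay on chromosome 14. The region chr14:19416915-19417350 had a pileup of 144 and 103 in KO, against 206 and 236 in WT, or 25.1 and 23.2 FPM against 36.6 and 40.4. In KO replicate 1 the highest was chr2:98662511-98662751, at 165, with 105 in KO replicate 2, against 150 and 147 in WT. Its neighbour chr2:98666322-98667306 had 138 and 107 in KO, against 159 and 159 in WT. The KO libraries overlapped the WT libraries in FPM at the first of this chromosome 2 pair (28.7 and 23.7 against 26.6 and 25.2) and were lower at the second (24.0 and 24.1 against 28.2 and 27.2). KO replicate 2 had its highest pileup there, at 107.

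Chromosome 17 held a cluster of 3 high-signal regions, 1 of them in an annotated ribosomal RNA pseudogene. The region chr17:39843366-39845963, in no gene of the RefSeq table, had 66 and 70 in KO, against 138 and 143 in WT, or 11.5 and 15.8 FPM against 24.5 and 24.5. Its fold enrichment was only 3.52 and 4.26 in KO and 3.39 and 3.44 in WT. The next, chr17:39846290-39846749 in the 18S ribosomal RNA pseudogene Rn18s-rs5, had no peak in KO and 121 and 112 in WT. The last, chr17:39848267-39848678 in the long non-coding RNA AY036118, had no peak in KO and 104 and 93 in WT. These 2 are among the 11 WT-only regions, with a fold enrichment of only 2.38 to 2.97.

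Near the start of chromosome 9, chr9:3000366-3001035 had 70 and 73 in KO, against 108 and 122 in WT. Its neighbour chr9:3020225-3020549 had 75 and 67 in KO, against 110 and 109 in WT. In FPM, KO was below WT at both, at 12.2 and 16.5 against 19.2 and 20.9 and at 13.1 and 15.1 against 19.5 and 18.7. Chr14:7524093-7524622, near Gm3558, had 31 and 27 in KO, against 43 and 41 in WT. Chr3:120717048-120717694, in the long non-coding RNA 6530403H02Rik, had 19 and 17 in KO, against 37 and 31 in WT. At each of these 4 regions every KO library was below every WT library.

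The other high-signal sites lay inside or near genes. In Zc3h7a, which encodes a CCCH zinc-finger protein, chr16:11143937-11144259 had 31 and 24 in KO, against 58 and 58 in WT (log2 KO/WT of FPM −0.90). Atp8b5, a phospholipid flippase gene, had 25 and 27 in KO, against 32 and 42 in WT (chr4:43301510-43302082), and the genotypes overlapped in FPM. Slc22a22, an organic anion transporter gene, had 51 and 48 in KO, against 45 and 47 in WT (chr15:57419937-57420464), with KO above WT in FPM at 8.88 and 10.8 against 7.99 and 8.05. Near Scaf8, in the pseudogene Pisd-ps2, chr17:3081604-3082405 had 31 and 28 in KO, against 24 and 29 in WT, and KO was again above WT in FPM. Frem3, an extracellular matrix gene, had 25 and 20 in KO, against 20 and 27 in WT (chr8:80640479-80641017), with overlap.

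Over the 23 regions of all 4 libraries, both KO libraries were below both WT libraries in FPM at 8 (34.8%), above them at 3 (13%) and overlapped at 12. All 8 lower ones were high-signal sites, of which 13 were in all 4 lists, and the median log2 KO/WT of those 13 was −0.35. Among the 10 regions that were not high-signal, 0 were lower, 1 was higher and 9 overlapped, with a median log2 KO/WT of −0.07. Without the scaling to depth, both KO pileups were below both WT pileups at 11 of the 23 and above at 2, and by fold enrichment at 10 and 4.

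**Figure D2:**
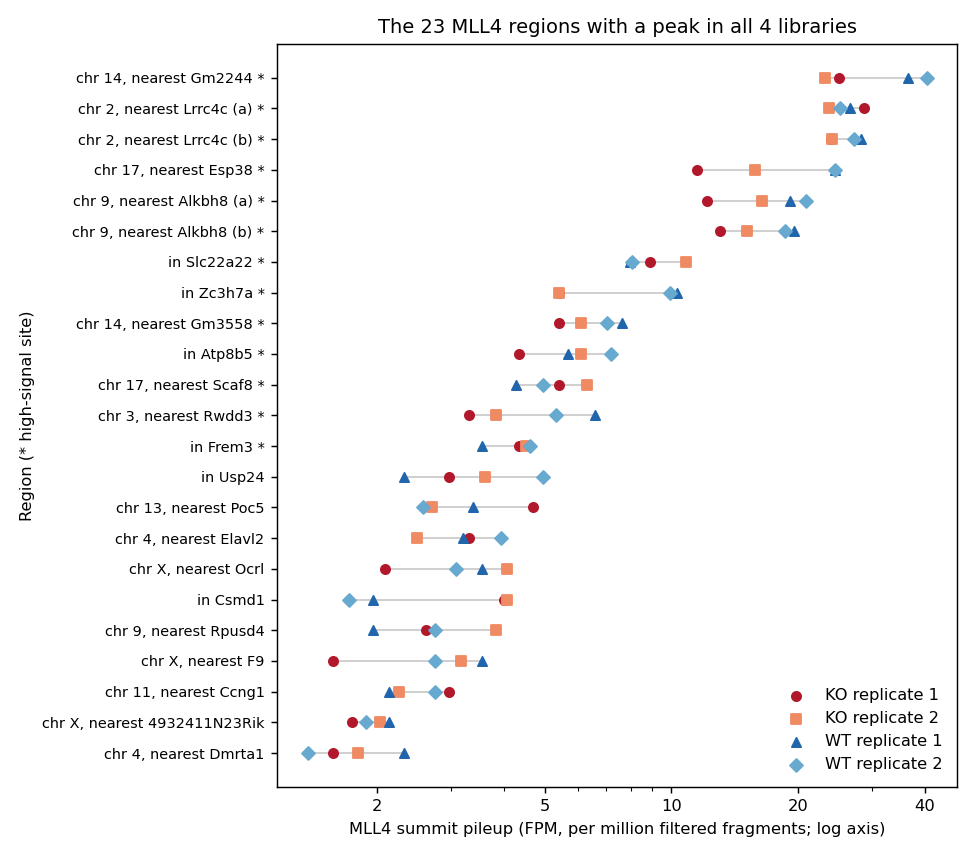
MLL4 summit pileup in FPM (log axis) at the 23 regions with a peak in all 4 libraries, named by the gene they lie in or the nearest protein-coding gene, which can be far away; one marker per library, with a line over their range and * for high-signal sites. KO markers lie left of WT markers at 8 starred sites, and the unstarred regions overlap except that in Csmd1, where KO lies to the right.

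The region in Csmd1, the gene of a large transmembrane protein with complement-control domains, was the one exception among the ordinary regions. At chr8:15973018-15973427 the pileup was 23 and 18 in KO, against 11 and 10 in WT, or 4.0 and 4.06 FPM against 1.95 and 1.71 (log2 KO/WT 1.14). Usp24, a deubiquitinase gene, had 17 and 16 in KO, against 13 and 29 in WT (chr4:106422127-106422595). A region near the centriole gene Poc5 had 27 and 12 in KO, against 19 and 15 in WT (chr13:96359661-96360060). In both of these the replicates of a genotype differed more than the genotypes did.

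Another 7 ordinary regions were shared by all 4 lists. Near Rpusd4, a mitochondrial pseudouridine synthase gene, chr9:35305251-35305528 had 15 and 17 in KO, against 11 and 16 in WT. Near Dmrta1, a DM-domain transcription factor gene, chr4:89789969-89790359 had 9 and 8 in KO, against 13 and 8 in WT. Chr4:91635743-91636149 had 19 and 11 in KO, against 18 and 23 in WT, and has no protein-coding gene within 100 kb. Also far from genes, chr11:41092673-41093124 had 17 and 10 in KO, against 12 and 16 in WT. Chromosome X held 3 of these regions. That near Ocrl, the gene of the inositol phosphatase lost in human Lowe syndrome, had 12 and 18 in KO, against 20 and 18 in WT (chrX:47969660-47970074). Near F9, which encodes coagulation factor IX, chrX:59930599-59931020 had 9 and 14 in KO, against 20 and 16 in WT. Near 4932411N23Rik, chrX:126757583-126757900 had 10 and 9 in KO, against 12 and 11 in WT. In FPM, KO and WT overlapped at all 7.

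KO-only regions numbered 2 and neither lay in or at a protein-coding gene. The first, chr14:19415736-19416002, had 21 and 21 in KO and no WT peak, and lies beside the strongest site of the WT lists. The second, chr6:70685439-70685779 in the immunoglobulin kappa locus Igk, had 8 and 10 in KO and no WT peak. Over the first, both H3K4me1 KO libraries and neither WT one had a peak, whereas H3K4me3 was called in KO replicate 2 (18) and in both WT libraries (27 and 19).

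Besides the 4 regions at gene ends and the chromosome 17 pair, 5 regions were WT-only. The highest was in Aida, the gene of an axin-interacting protein, at chr1:183299162-183299424. It had no peak in KO and 40 and 51 in WT (fold enrichment 17.4 and 20.2), with no histone peak over it in any library. The nearest H3K4me3 peaks lay 666 and 422 bp away in KO and 222 and 424 bp away in WT. In Sfi1, chr11:3133564-3133928 had no peak in KO and 31 and 30 in WT, at a fold enrichment of only 4.01 and 3.83. Chr6:44169715-44170154 had no peak in KO and 17 and 11 in WT, chr7:60955588-60955909 12 and 14 in WT, and chr8:30705242-30705640 11 and 19 in WT. None of these last 3 has a protein-coding gene within 100 kb. The WT pileups at the Aida region were 2.67 and 3.19 times the median of their lists.

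Regions held by 3 libraries had modest pileups, from 9 to 27, and were mostly outside genes (14 of 18). Without a call in KO replicate 1 were chr19:52034613-52035055 (15 in KO replicate 2, 12 and 26 in WT), chr9:3032179-3032452 (11 in KO, 13 and 11 in WT), chr11:45757250-45757683 near Clint1 (11 in KO, 11 and 11 in WT) and chr14:36596754-36597040 (9 in KO, 11 and 10 in WT). The last lay in Shroom4, an actin-binding protein gene (chrX:6551660-6552128), with 13 in KO replicate 2 and 10 and 13 in WT. The raw pileup of KO replicate 2 was below both WT pileups at 1 of these 5, chr14:36596754-36597040, and above both at 0. Scaled to FPM it was below both at 0 and above both at 4, so the direction turned with the scaling.

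KO replicate 2, the shallowest library, lacked 8 regions that the other 3 held. Besides Lars2, one lay in Rnf10, a RING finger gene (chr5:115253616-115254053), with 10 in KO replicate 1 and 14 and 16 in WT. The remaining 6 were chr2:101350442-101350906 (15 in KO, 18 and 27 in WT), chr3:5860397-5860802 (12 in KO, 21 and 21 in WT), chr6:16210035-16210519 (10 in KO, 18 and 18 in WT), chr13:80597295-80597742 (12 in KO, 12 and 11 in WT), chrX:14965965-14966225 (9 in KO, 10 and 10 in WT) and chrX:46309937-46310375 near Actrt1 (9 in KO, 12 and 14 in WT). KO replicate 1 was below both WT libraries at 7 of these 8, in raw pileup and in FPM.

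WT replicate 1 lacked 5. In Dlgap1, a postsynaptic scaffold gene, chr17:70148351-70148643 had 12 and 13 in KO and 10 in WT replicate 2. Near Car2, the carbonic anhydrase gene, chr3:14983582-14983898 had 15 and 13 in KO and 12 in WT. The others were chr3:74233383-74233742 near Gm6098 (12 and 15 in KO, 12 in WT), chr1:43847775-43848221 near Uxs1 (10 and 9 in KO, 10 in WT) and chr1:112940707-112941175 (10 and 11 in KO, 13 in WT).

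Single-library regions away from gene ends numbered 22. Their context differed by library: of the 8 in KO replicate 1 alone, 7 lay inside protein-coding genes, against 1 of 10 in WT replicate 1 alone and 2 of 15 in WT replicate 2 alone, where gene ends took 5 and 7. This contrast between libraries was noticed in the data and was not tested. The 2 highest by pileup were named after their values were seen. One was chr11:3199316-3199804 in Sfi1, with 42 in KO replicate 1 at a fold enrichment of only 3.83. The other was chr6:103649061-103649291 in Chl1, a neural cell adhesion gene, with 48 in WT replicate 2 at a fold enrichment of 19.5. Another 5 regions were held by 1 library of each genotype, with pileups of 8 to 14.

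A larger share of the KO than of the WT MLL4 peaks overlapped histone peaks of the same genotype, a difference that was much smaller when the histone peaks of both genotypes were pooled. An H3K4me3 peak of either same-genotype library overlapped 89.8% of the peaks of KO replicate 1 (44 of 49, exact 95% interval 77.8 to 96.6) and 90% of KO replicate 2 (36 of 40, 76.3 to 97.2), against 73.3% in WT replicate 1 (44 of 60, 60.3 to 83.9) and 73.9% in WT replicate 2 (51 of 69, 61.9 to 83.7). The means were 89.9 ± 0.144% in KO and 73.6 ± 0.410% in WT (SD, n = 2 each; difference 16.3 percentage points, exact permutation p = 0.333). The KO H3K4me3 peaks cover 0.486% of the bases of the effective genome and the WT ones 1.21%. Such shares of bases are a different measure from shares of peaks overlapped by at least 1 bp. For H3K4me1 the shares were 65.3% (32 of 49, 50.4 to 78.3) and 62.5% (25 of 40, 45.8 to 77.3) in KO, against 26.7% (16 of 60, 16.1 to 39.7) and 23.2% (16 of 69, 13.9 to 34.9) in WT. The KO intervals for H3K4me1 did not meet the WT intervals, and the difference of the means was 39.0 points (exact permutation p = 0.333). H3K4me1 peaks cover 2.71% of the effective genome in KO and 2.92% in WT. When a histone peak in any library of either genotype counted, the differences were 2.23 points for H3K4me3 (exact permutation p = 0.667) and 7.09 points for H3K4me1 (exact permutation p = 0.333).

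**Figure D3:**
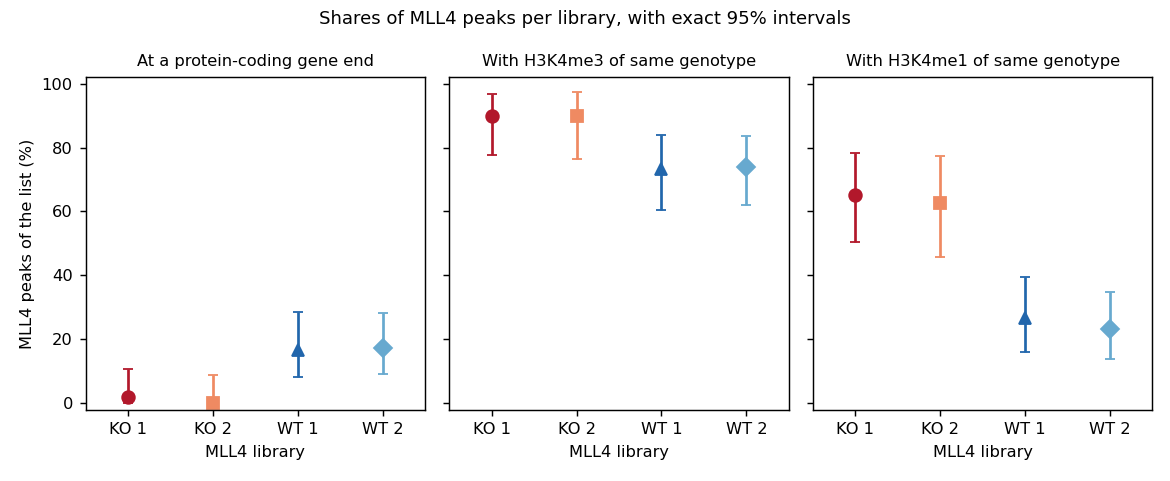
Percentage of each library's MLL4 peaks at a protein-coding gene end, over an H3K4me3 peak and over an H3K4me1 peak of the same genotype, with exact 95% binomial intervals as bars. KO libraries sit at 2.04% and 0 at gene ends, below 16.7% and 17.4% in WT, and at 65.3% and 62.5% with H3K4me1, above 26.7% and 23.2% in WT.

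The lists also differed in makeup, with gene ends a larger part of the WT lists and sites of all 4 libraries a larger part of the KO lists; the part of this in the shares was not tested. Over 1 fixed set of regions the histone libraries themselves also parted. Among the 76 regions away from gene ends, an H3K4me1 peak was called at 31 and 33 in the KO H3K4me1 libraries, against 16 and 12 in the WT ones. H3K4me3 was called at 43 and 52 of them in KO, against 34 and 36 in WT. Setting aside the high-signal sites, most of which have a peak in every histone library by definition, left 61 regions, with H3K4me1 at 18 and 20 in KO, against 3 and 0 in WT, and H3K4me3 at 29 and 38 in KO, against 20 and 23 in WT. Of these 61 regions, 43 had an MLL4 peak in a KO library and 50 in a WT library. The histone pileups at them were low for their lists, with median percentiles of 4.44 and 6.96 for H3K4me3 in KO and 6.80 and 5.85 in WT, and of 15.5 and 20.2 for H3K4me1 in KO and 1.69 in WT replicate 1.

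Of the merged H3K4me3 regions in the series, 10 of 17842 were KO-only (0.056%), and 7 of these 10 lay at an MLL4 region; 78 merged H3K4me3 regions did so in all. One was chr11:3131907-3132345 at Sfi1, with a pileup of 28 and 39 in the KO H3K4me3 libraries and no WT call, where MLL4 was called in WT replicate 2. The largest was chr2:98662505-98662756, with 114 and 135 in KO and no WT call, at a site where all 4 MLL4 libraries had a peak. Weaker ones were chr19:52034645-52035009 (9 and 6 in KO), chr2:81786711-81787134 (12 and 8), chr3:14983592-14983884 (7 and 10), chr5:58498435-58498732 (15 and 16) and chr5:115253605-115254064 in Rnf10 (10 and 8). WT-only H3K4me3 regions at MLL4 sites numbered 2 of 78, against 21.7% of all H3K4me3 regions, and 30 of 78 were in all 4 libraries, against 46.8%.

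For H3K4me1, 10 of the 43 merged regions at MLL4 sites were KO-only (23.3%), against 5.37% of all 94400, and 1 was WT-only, against 6.63%. None of the 10 was on chromosome 10, the chromosome that held 588 of the series' 5070 KO-only H3K4me1 regions. At that share a set of only 10 can readily hold none, so this count says little. The 10 included the MLL4 sites in Usp24 (22 and 18 in the KO H3K4me1 libraries, no WT call), near Ocrl (13 and 12), near Rpusd4 (19 and 15) and at chr4:91635722-91636128 (15 and 26). Of these 10, 5 were at MLL4 regions held by all 4 MLL4 libraries, so KO-only H3K4me1 stood beside MLL4 calls in both genotypes there. The share of KO-only H3K4me1 regions at MLL4 sites was not tested against the rest.

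The 12 sites found in all 12 libraries carry histone peaks by definition. At these, the H3K4me3 pileup in FPM was a median of 0.890 and 0.865 times the MLL4 pileup in KO, against 0.458 and 0.558 times in WT. H3K4me3 was above MLL4 at 3 and 1 of the 12 in KO and at 1 and 1 in WT. The median H3K4me3 pileup itself overlapped between genotypes, at 7.34 and 6.90 FPM in KO and 6.80 and 7.68 in WT. The median MLL4 pileup was 7.14 and 8.57 FPM in KO and 9.15 and 8.99 in WT. At regions away from gene ends that were not high-signal, the median ratios of H3K4me3 to MLL4 were 0.845 and 0.581 in KO, against 0.414 and 0.671 in WT. H3K4me3 exceeded MLL4 there at 6 of 20 and 2 of 19 regions in KO and at 0 of 15 and 0 of 20 in WT. Over the whole set, 13 of the 93 regions were overlapped by no histone peak of any of the 8 libraries, among them those at Aida, Gsk3b, Rras and Zfpm1.

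**Figure D4:**
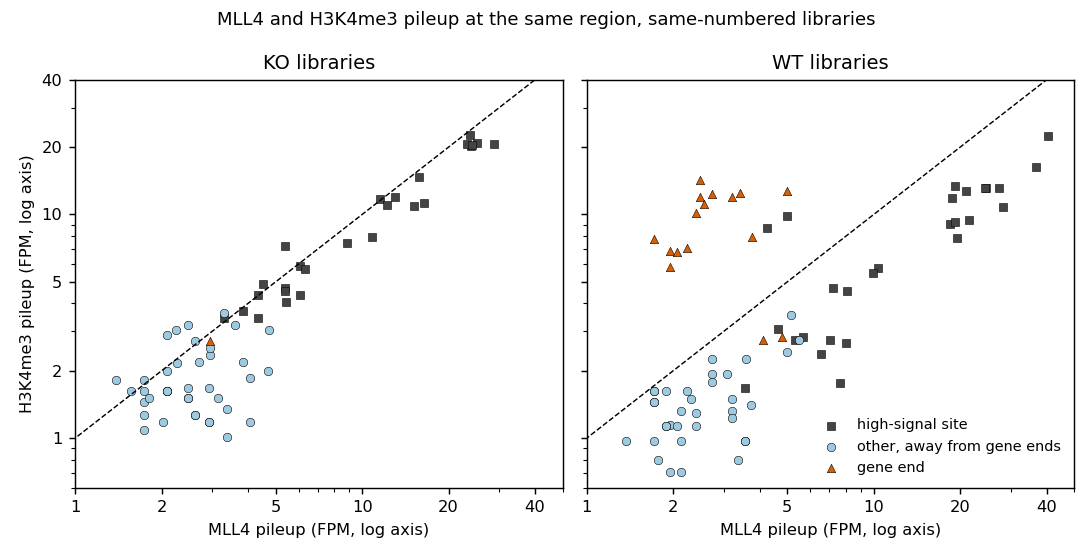
MLL4 against H3K4me3 summit pileup in FPM (log axes) at regions where the same-numbered library of each antibody has a peak, for KO (left) and WT (right); the dashed line marks equal values. WT gene ends other than Lars2 form a group above the line, with median ratios over all WT gene ends of 3.53 and 3.63; the 1 KO gene-end point, Lars2, lies below it at 0.918. The 12 sites of all 12 libraries lie nearer the line in KO (0.890 and 0.865) than in WT (0.458 and 0.558).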

How the data were processed

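Peak lists were deposited per library. Each library had its own MACS2 run (2.1.0.20150731, paired ends) by the authors at a q cutoff of 0.01, per the file headers, with no control and a local background over 10000 bp. The headers also state that 1 fragment per position was kept in the MLL4 lists, which can cap the pileup signal at the strongest sites. The submitters' processing notes name mm10, Bowtie2, SAMtools 1.5, bedtools, deepTools and HOMER 4.10, with no role. The deposited pileup signal is not scaled to depth; the deposited fold ratio and the −log10 p and q values are the authors' own for a peak within its list.

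Peaks on chromosomes 1 to 19 and X were merged at an overlap of 1 bp. Pileups were scaled to 1000000 filtered fragments of the header (FPM). Gene positions and promoters came from RefSeq tables of GRCm38.p6, with 21627 protein-coding genes; 17 of the 20 genes at MLL4 peaks had a promoter entry. Exons could not be told from introns. Values per library were compared by two-sided exact permutation tests, with 6 ways to assign 4 libraries. For shares, exact 95% intervals were computed by the Clopper-Pearson method. They allow for the error of counting alone. Alternatives were equal list lengths, a stricter cutoff (−log10 q of at least 3), other windows and overlaps, each library left out, and the replicate number as a block. Python 3.11.15, pandas 2.3.3, numpy 2.4.6, SciPy 1.17.1 and matplotlib 3.10.9 were used.

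Members, lists and rules were chosen with earlier results of these data known. Named were regions held by at least 3 libraries or by both libraries of 1 genotype alone, those at gene ends, high-signal sites and each library's highest. Genes were named at gene ends, or as the gene holding a region or the nearest within 100 kb.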

Additional observations from a re-analysis of the deposited data

Results flagged for a closer look

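MLL4 peaks outside chromosomes 1 to 19 and X were not part of the comparisons and are given here because signal was called there. On chromosome M, the mitochondrial genome, the lists held 6 and 5 peaks in KO and 3 and 5 in WT. Their highest pileup was 229 and 193 in KO, against 344 and 316 in WT, or 39.9 and 43.5 FPM (scaled to 1000000 filtered fragments) against 61.1 and 54.1. They covered 8900 and 8531 bp in KO and 9635 and 9425 bp in WT. Histone libraries had 4 to 7 peaks on chromosome M as well. On chromosome Y each KO library held 1 MLL4 peak, with pileups of 9 and 10, and the WT libraries held 0. Chromosome Y peaks were present in H3K4me3 lists of both genotypes, 4 and 3 in KO and 5 and 5 in WT.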

How the results depend on the processing

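The shares of MLL4 peaks at gene ends, with H3K4me3 and with H3K4me1 kept their direction under every alternative run, from −20.8 to −14.0, 2.23 to 19.3 and 7.09 to 44.1 percentage points (KO minus WT), with 2.23 and 7.09 when histone peaks of either genotype counted. So did the log2 number of peaks, from −0.71 to 0, where 0 is fixed by lists of equal length. Directions turned for the median measures, and the cause was not tested. With lists of equal length the log2 differences were −0.10 (length), −0.34 (pileup in FPM) and −0.18 (fold enrichment). Fold enrichment was −0.044 without high-signal sites and −0.038 with every chromosome, and unscaled pileup was −0.047. Leaving out each library gave −0.69 to −0.39 (peaks), 0.03 to 0.15 (length), −0.049 to 0.32 (pileup), −0.053 to 0.18 (fold), −17.0 to −15.0 (gene ends), 16.0 to 16.6 (H3K4me3) and 37.2 to 40.7 (H3K4me1). Both negative values were without KO replicate 2. Counts moved too. KO-only regions numbered 1 at the stricter cutoff, 7 at equal length and 2 to 10 with a library left out. WT-only regions numbered 7 at equal length and 16 to 26 with a library left out. Regions in all libraries numbered 10 without high-signal sites, and 23 to 31 with a library left out. WT-only genes numbered 3 at equal length, 12 with a 5 kb window and 6 to 13 with a library left out; genes in all libraries numbered 1 with a 5 kb window and 0 to 1 with a library left out. KO-only genes stayed at 0 under the alternatives run. For the counts of regions and genes the setting without high-signal sites was chosen after seeing the data, as were the 1 kb distance for H3K4me3, the Lars2 region left out and other high-signal definitions (13 and 12 sites). Deviations of KO replicate 1 and WT replicate 1 from their group means did not correlate over 23 regions (r = −0.02). So few regions of mostly low pileup cannot show whether libraries of the same number were prepared together. With the replicate block the values were the same (−0.54, 0.09, 0.14, 0.06, −16.0, 16.3 and 39.0), with exact p of 0.5 for 5 and 1 for pileup and fold, and 0.5 the smallest possible. Shares of lists of 40 to 69 peaks have wide intervals, and a site with no call is one that did not pass the caller's threshold at 4435103 to 5838305 fragments.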

Other observations

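Peak borders were compared at the 22 regions where each of the 4 MLL4 libraries had exactly 1 peak. The range of the 4 starts had a median of 47.5 bp and that of the 4 ends 35.5 bp. At 5 of the 22 both borders agreed within 10 bp in all 4 libraries. Chromosome X held 9 of the 93 MLL4 regions, all away from gene ends and none high-signal. Summits of the same region in different libraries lay up to 1451 bp apart at the longest region, that of chromosome 17, and up to 259 bp apart in the regions that were not high-signal.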
